A study of Mus musculus with 8 samples.

Results

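Ensembl-only transcript probes are the microarray probes whose only target name is an Ensembl mouse transcript identifier. They were chosen by the start of the name that the scanner files give each probe, leaving out control probes. This gave 3218 of 55681 probes, aimed at 3071 transcripts, and no measured value entered the choice. They were read in whole kidney of 12-week-old mice labelled male. Kidney samples, 4 of mice fed cinacalcet HCl for 5 days at a dose worded as 1 mg per g body weight, were set against 4 of mice fed standard chow. Cinacalcet is a calcimimetic, a drug that makes the calcium-sensing receptor more sensitive to calcium. The labels give no strain and name no allele, and they do not state that the RNAs are of separate animals. The p-values therefore cover only the spread among these 8 samples, part of which may be technical. Y-linked and Xist signals, given below, differed between samples within each group.

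Ensembl and RefSeq are separate annotations of the mouse genome. RefSeq gives a curated messenger RNA an accession starting with NM, and most protein-coding genes have one. Ensembl also annotates transcripts without such a record, among them extra isoforms, pseudogenes, noncoding RNAs, the mitochondrial genes and the gene segments that encode antibodies and T cell receptors. The files pair no Ensembl identifier with a gene, and the RefSeq gene table used for naming matched 0 of the 3218 probes. The probes are therefore given by identifier or rank, and their genes, positions and sequences are not analysed here.

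The probes were set against 26536 RefSeq mRNA probes on the same arrays. Array brightness was similar, with a 75th percentile of 203 to 257 intensity units, and precision is limited by having 4 arrays in a group. Control 4, cinacalcet 2 and cinacalcet 3 stood apart, since none of 4 Y-linked genes was well above background there and Xist, the X-inactivation transcript, was at 0.45 to 0.95. On the other 5 arrays, called Y-positive below, Xist was at -6.99 to -4.22 and at least 3 of the 4 Y-linked genes were detected. These values are levels, meaning log2 intensity relative to the array's 75th percentile, so that 0 is that percentile. Of 16 measured markers of nephron and glomerular cells 15 were above background on every array, the exception being the sodium channel subunit Scnn1g, and none passed the test between groups. Blood and immune markers did differ. All 4 erythroid markers fell, with summed linear levels of 500 to 720 in controls and 93.0 to 317 with cinacalcet. Both measured macrophage markers fell (28.6 to 31.5 against 18.6 to 24.4) and all 3 neutrophil markers rose (0.778 to 1.77 against 2.82 to 4.43). Of 3 brown fat markers 1 passed, as lower, and their sums were 7.66 to 39.6 in controls and 0.630 to 12.9 with cinacalcet. No marker of B and plasma cells or of T cells passed. The part of these cells in the results below was not tested.

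Ensembl-only probes gave a signal in kidney less often than RefSeq mRNA probes. Of 3215 probes with usable spots, 43.3% to 50.2% were well above background on a given array, against 67.3% to 71.3% of RefSeq mRNA probes. The share was 49.1%, 43.3%, 44.6% and 43.7% on controls 1 to 4. On cinacalcet 1 to 4 it was 46.8%, 46.4%, 43.5% and 50.2%, so the groups overlapped. The means were 45.2% ± 2.68 and 46.7% ± 2.76 (SD, n = 4 each), a difference smaller than the spread (exact two-sided permutation test, p = 0.457, where 0.0286 is the smallest p that 4 against 4 can give). Detection was mostly all or none: 1223 probes (38.0%) were above background on all 8 arrays and 1361 (42.3%) on no array. Among RefSeq mRNA probes these shares were 64.5% and 24.3%.

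The Ensembl-only probes that did give a signal were mostly dim, with a bright tail. The 1478 that were detected on 4 or more of the 8 arrays were kept for testing. Their median level was -1.64, against 0.42 for the 18385 RefSeq mRNA probes kept. A level of at least 5 was read for 8.80% of the Ensembl-only probes and 7.17% of the RefSeq mRNA probes. These shares describe probe signal, which also differs between probes of 1 transcript, and not transcript amounts. Ensembl-only probes were 4.97% of all kept probes and 11 of the 100 brightest. The 6 brightest, at levels of 9.34 to 10.6 on single arrays, did not pass the test, with log2 fold changes of -0.10 to 0.02 (limma adjusted p of 0.555 to 0.895).

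With cinacalcet, more Ensembl-only probes rose than fell. In a limma fit over all 29730 kept probes, with Benjamini-Hochberg adjustment, 89 of the 1478 passed an adjusted p of 0.05, of which 68 were higher and 21 lower. That is 6.02% of them, where 6.00% of all kept probes passed. Higher calls made up 4.60% of the Ensembl-only probes (3.45% of all kept probes) and lower calls 1.42% (2.56%). RefSeq mRNA probes of like signal were read in level bins 0.5 wide, weighted by how many Ensembl-only probes each bin held. Of these 6.07% passed, 2.74% higher and 3.34% lower. The share called was thus near the background, and the direction was where the classes parted: 76.4% of the Ensembl-only calls were higher, against 45.1% of the calls of RefSeq mRNA probes of like signal. No test of this difference was made. Of the 68 higher calls, 4 were above background on no control array. They were kept through the cinacalcet arrays alone, which fixes their direction. Among the 1223 Ensembl-only probes above background on all 8 arrays, fitted with only such probes, 7.85% passed, against 8.15% of RefSeq mRNA probes of like signal. There 67 were higher and 29 lower, or 69.8% higher against 42.4%. The tissue was bulk kidney, so fewer cells of a type and less RNA per cell cannot be told apart.

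The same direction was seen in the other probes without a RefSeq mRNA accession. These 9867 kept probes, of all other name types, had 450 higher and 126 lower calls, or 78.1% higher, so the lean towards higher signal is not particular to Ensembl-only probes. Over single probes the shift was small. The median log2 fold change was 0.05 for Ensembl-only probes, -0.01 for RefSeq mRNA probes of like signal and 0.01 for all kept probes. The direction for Ensembl-only probes turned with normexp background correction (-0.0185) and without the filter on background (-0.0700). The 4 control and 4 cinacalcet arrays did not overlap in 243 Ensembl-only probes, or 16.4% (16.7% of all kept probes). Of these, 175 were higher with cinacalcet, or 11.8% (9.59%), and 68 were lower, or 4.60% (7.13%).

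The balance of calls moved with the background correction and with the arrays used. With normexp background correction 47 Ensembl-only probes were higher and 41 lower (of all kept probes 6.45% passed, 2.80% higher and 3.65% lower). Thus 53.4% of calls were higher, against 29.2% for RefSeq mRNA probes of like signal. On the 5 Y-positive arrays 34 were higher and 28 lower, or 54.8% against 34.5% (of all kept probes 3.08% passed, 1.37% higher and 1.71% lower). With Y status as a block the counts were 107 and 50, or 68.2% against 40.7% (of all kept probes 11.1% passed, 5.75% higher and 5.40% lower). Leaving out control 1, 2 or 3 gave 31, 16 or 22 calls, or 2.10%, 1.08% and 1.49%, against 1.75%, 0.920% and 1.19% of RefSeq mRNA probes of like signal. Without control 4 there were 253, or 17.1% against 17.2%. Without cinacalcet 1, 2, 3 or 4 the counts were 71, 27, 29 and 42, or 4.80%, 1.83%, 1.96% and 2.84%, against 5.44%, 1.42%, 1.47% and 2.44%. The number called thus moved alike in both classes.

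The lean towards higher calls was seen at dim and middle levels. Under a level of -3, 16 of 427 Ensembl-only probes were higher and 3 lower, or 3.75% and 0.703%, against 2.79% and 2.48% of RefSeq mRNA probes. Between -3 and -1 the counts were 22 and 7 of 424, or 5.19% and 1.65% against 3.13% and 4.28%. Between -1 and 1 they were 19 and 3 of 255, or 7.45% and 1.18% against 3.07% and 3.87%. At levels of 1 and over, 11 of 372 were higher and 8 lower, or 2.96% and 2.15% against 2.40% and 2.83%.

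The changes in single probes were mostly modest. The 68 higher calls had log2 fold changes of 0.34 to 2.69 with a median of 0.65, and 16 were at least 2-fold. For 4 of them no control array was well above background, which leaves only a lower bound, and with these at their bound the median was 0.64 and 14 were at least 2-fold. The 21 lower calls ran from -1.96 to -0.34 with a median of -0.77, and 6 were at least 2-fold. In the 89 called probes the groups did not overlap. The same held for 1113 of 1120 called RefSeq mRNA probes and 572 of 576 called probes of other name types. The lack of overlap thus goes with passing the test and is not particular to Ensembl-only probes. Of the 89, 14 also passed in all 8 fits that left out 1 array, a count without a figure for the other classes here.

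By fitted log2 fold change the largest rise was in ENSMUST00000042344, read by probe A_51_P467699. Its level was -4.42, -6.42, -5.68 and -5.57 on controls 1 to 4 and -3.24, -2.72, -2.77 and -2.58 on cinacalcet 1 to 4. All cinacalcet arrays lay above all control arrays, but only 1 control array was well above background. The size, rank and adjusted p-values of this rise thus rest on 3 control values that were not above background. The p-values are not read as support. The log2 fold change was 2.69 (SE 0.38; limma adjusted p = 0.0144), or 0.47 with normexp background correction, where the sixth rise below was larger at 0.94. The call held in all 8 fits without 1 array, while on the 5 Y-positive arrays the adjusted p was 0.0810.

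The largest rise after it was in ENSMUST00000114514, read by probe A_55_P2002205. Its level was -5.07, -4.70, -4.94 and -4.13 in controls and -2.81, -2.44, -1.99 and -2.96 with cinacalcet. It was well above background on every cinacalcet array and on no control array, without overlap. It was at least 3.68-fold higher with cinacalcet (limma adjusted p = 0.0110, a call that held in all 8 fits without 1 array), a bound that sets the cinacalcet mean against the higher of each control array's own signal and its lowest detected signal. With normexp background correction its log2 fold change was 0.49 (limma adjusted p = 0.0301), below that bound, so the bound holds only for the background handling reported here. On the 5 Y-positive arrays its adjusted p was 0.0245. These adjusted p-values rest on control values that were not above background and are not read as support. In all, 5 Ensembl-only probes were above background on every cinacalcet array and no control array, with bounds of 1.48-fold to 3.68-fold. That pattern itself fixes their direction. The 68 higher calls include 4 of them, which are therefore not read as support for the lean towards higher calls. None of 3215 showed the opposite pattern. Among 26525 RefSeq mRNA probes 24 showed the first pattern and 7 the opposite one.

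Of the other 10 of the 12 largest rises, the third and 11th were above background on no control array and were at least 1.79-fold and 1.81-fold higher (limma adjusted p = 0.0169 and 0.0308). Here too the adjusted p-values rest on control values that were not above background. The remaining 8 had log2 fold changes of 1.07 to 1.25 (limma adjusted p up to 0.0418), and for 1 of these only 1 control array was above background. The adjusted p-value of that probe, too, rests mostly on control values that were not above background. Of the 12, 7 were well above background on all 8 arrays. All 12 passed with Y status as a block, 5 on the Y-positive arrays and 8 with normexp background correction, where log2 fold changes were 0.13 to 0.94. Of all 89 called probes, 89, 30 and 64 passed in these settings, so passing with the block does not set the 12 apart. The tightest of the 12 was the eighth largest. Its level was -3.32, -3.25, -3.57 and -3.37 in controls and -2.45, -2.22, -2.19 and -2.25 with cinacalcet, a log2 fold change of 1.10 (SE 0.10; limma adjusted p = 0.0103). The cinacalcet arrays differed from each other by less than the gap to the highest control. The sixth largest, a brighter probe, varied more among the treated arrays than the eighth. It was at -0.70, -0.99, -0.60 and -0.64 in controls and at -0.16, 0.61, 0.48 and 0.75 with cinacalcet (log2 fold change 1.15, SE 0.20; limma adjusted p = 0.0217). Cinacalcet 1 was the nearest to the controls, and normexp background correction gave 0.94. The call was lost without any 1 of cinacalcet 2 and 3 and controls 1 to 3 (adjusted p up to 0.0685). The tenth largest was at -0.81, -0.58, -0.61 and -0.45 in controls and at 0.92, 0.23, -0.09 and 0.79 with cinacalcet (log2 fold change 1.07, SE 0.22; limma adjusted p = 0.0344). There cinacalcet 3 and 2 were the lowest of the treated arrays, and on the Y-positive arrays alone the log2 fold change was 1.52. Its call held only without cinacalcet 3 or control 4, with an adjusted p of up to 0.0925 in the other fits without 1 array.

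The largest fall was in ENSMUST00000143428, read by probe A_55_P2274423. Its level was -0.88, -1.10, -0.86 and -1.41 on controls 1 to 4 and -2.51, -3.43, -3.61 and -2.53 on cinacalcet 1 to 4. It was well above background on all 8 arrays, and every cinacalcet array lay below every control array. The probe fell 3.88-fold, a log2 fold change of -1.96 (SE 0.28; limma adjusted p = 0.0146), -1.57 on the 5 Y-positive arrays (adjusted p = 0.0245) and -1.05 with normexp background correction. The lowest values were those of cinacalcet 2 and 3, neither of them Y-positive. The call was lost without control 2 (adjusted p = 0.0513) and held in the other 7 fits without 1 array.

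The fall next in size was in ENSMUST00000010286, read by probe A_55_P1981964. Its level was -2.66, -2.75, -2.54 and -2.40 in controls and -3.96, -3.46, -3.74 and -4.38 with cinacalcet. The groups did not overlap, and all 8 arrays were above background. It fell 2.46-fold, a log2 fold change of -1.30 (SE 0.19; limma adjusted p = 0.0146), or -0.42 with normexp background correction, and passed in all 8 fits without 1 array.

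Among the falls were some of the brightest probes to change. The third largest fall was at 5.91, 6.42, 6.16 and 5.47 in controls and at 4.82, 4.72, 4.78 and 4.65 with cinacalcet. The cinacalcet arrays were close together, and control 4 was the lowest control. The log2 fold change was -1.25 (SE 0.19; limma adjusted p = 0.0154), and -1.27 with normexp background correction. Without control 3 the adjusted p was 0.0514. The seventh largest was at 4.50 to 5.27 in controls and 3.76 to 4.43 with cinacalcet (adjusted p = 0.0425), a call lost without any 1 of controls 1 to 3 and cinacalcet 2 to 4. The fourth largest was at 2.32, 2.44, 2.85 and 2.87 in controls and at 0.76, 1.94, 1.84 and 1.05 with cinacalcet (log2 fold change -1.22, SE 0.28; limma adjusted p = 0.0463). It was lowest on cinacalcet 1 and 4, and among the 8 fits without 1 array it passed only without control 4. The fifth largest was dim and tight, at -3.35 to -2.97 in controls and -4.46 to -4.25 with cinacalcet (log2 fold change -1.20, SE 0.11; limma adjusted p = 0.0103), and passed in all 8 such fits; with normexp background correction it was -0.36. The 12 largest falls ran from -1.96 to -0.69. All 12 passed with Y status as a block and with normexp background correction, and 8 passed on the Y-positive arrays. Of all 89 called probes, 89, 64 and 30 passed in these settings.

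Several probes of 1 transcript often differed in level and seldom in direction. Of 1420 transcripts tested, 49 had more than 1 kept probe. The levels of such probes differed by a median of 1.44 and by up to 8.93 log2 units, and their log2 fold changes by a median of 0.08 and by up to 1.15. All probes had the same sign in 41 of the 49. The transcript with the third and eighth largest rises was the 1 among the 49 with a call. Of its 3 probes the first was at least 1.79-fold higher, a bound, and did not pass with normexp background correction (log2 fold change 0.14; limma adjusted p = 0.314). The others had log2 fold changes of 1.10 and 0.35, and the last did not pass (limma adjusted p = 0.264).

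The Ensembl-only probes also differed between arrays by Y status, beside the treatment. The first principal component of the 1478 probes held 51.0% of their variance and placed control 4, cinacalcet 2 and cinacalcet 3 at 7.43, 11.8 and 16.7. The Y-positive arrays lay lower, with controls 1 to 3 at -13.3, -14.6 and -7.56 and cinacalcet 1 and 4 at -3.34 and 2.96. Within each Y class the controls lay below the cinacalcet arrays. In a fit that also held the treatment, 74 Ensembl-only probes (5.01%) differed at least 2-fold between the other arrays and the Y-positive arrays, 59 of them lower and 15 higher on the other 3. The share was 3.05% among all kept RefSeq mRNA probes and 2.70% among those of other name types, neither matched for signal. On all 5 Y-positive arrays and on none of the other 3, 14 of 3215 Ensembl-only probes were above background, and 3 showed the reverse. The counts were 45 and 21 of 26525 RefSeq mRNA probes and 34 and 14 of 25910 probes of other name types. More probes detected only on the Y-positive arrays than the reverse were thus seen in all 3 classes.

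Of those 74 probes, 36 shared a narrow range of identifier numbers, 103000 to 103999, which was picked out after the values were seen and is therefore described without a test. The range holds 277 Ensembl-only probes, of which 132 were above background on no array and 72 were tested. Of the 72, 36 were at least 2-fold lower on the 3 arrays that were not Y-positive and none was 2-fold higher. Of the 14 probes detected only on the Y-positive arrays, 10 were in it. Outside the range, 38 of 1406 probes (2.70%) differed 2-fold. The files do not say what these transcripts encode.

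The median level of the 72 probes was -2.18, -2.34, -3.22 and -3.71 on controls 1 to 4 and -2.58, -3.45, -3.95 and -3.34 on cinacalcet 1 to 4. It was highest on controls 1 and 2 and cinacalcet 1, and lowest on cinacalcet 3 and control 4, so both groups held high and low arrays. The number of the 277 probes above background ran the same way at its ends, from 125 on control 1 to 42 on cinacalcet 3. The median of the other 1406 probes stayed within -1.61 to -1.39. Jchain, which encodes the joining chain of polymeric antibodies made by plasma cells, was at 2.52, 2.44, 1.06 and -0.01 in controls and at 1.59, -0.29, -0.87 and 0.52 with cinacalcet. Jchain was also highest on controls 1 and 2 and cinacalcet 1. The part of plasma cells in these values was not tested.

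Between treatments the 72 probes gave 2 higher and 2 lower calls, or 5.56%, near the 6.00% of all kept probes. Their median log2 fold change was -0.48 on all 8 arrays, -0.21 with Y status as a block and -0.26 on the 5 Y-positive arrays. Jchain had a log2 fold change of -1.27 (limma adjusted p = 0.287), and -0.82 with the block (adjusted p = 0.219). Without these probes the Ensembl-only calls were 66 higher and 19 lower of 1406.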

How the data were processed

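RNA of 8 kidney samples, 4 control and 4 cinacalcet by their titles, was read on one-colour Agilent arrays, 1 each, all on 1 slide. The deposited scanner files hold spot intensity on a linear scale, background-corrected by Agilent Feature Extraction 11.0.1.1 per the file headers, while the submitters' processing notes name version 9.5. The flags for signal well above background and for outlier spots are also the software's. Outlier spots were left out, 31 probes without a usable spot on an array were dropped (3 of them Ensembl-only), and spots of a probe were averaged. Processed intensity was taken as log2 minus each array's 75th percentile, and probes passing the well-above-background flag on 4 or more of the 8 arrays entered 1 fit in limma 3.58.1 under R 4.3.3 (lmFit, eBayes, no covariates), with Benjamini-Hochberg adjustment. The fit and the signal weighting were tested on simulated data.

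The probe class, comparisons and named-probe rule were chosen with earlier results of these data known. The rule takes the 12 largest rises and falls among called probes whose groups do not overlap and that are above background on all 4 arrays of a group, the 6 brightest probes, and transcripts with several kept probes and a call. Only 2 rises and 2 falls are printed by identifier, since no table names them, and families by gene symbol could not be formed. Alternatives were other normalizations, normexp with an offset of 50 on the median spot and background signals, other filters and fit settings, blocks for replicate number, slide row and Y-linked signal, the arrays with Y-linked signal alone, and leaving out each array.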

Additional observations from a re-analysis of the deposited data

Results flagged for a closer look

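In the 11th largest rise, cinacalcet 3 lay at -3.16, apart from the other 3 cinacalcet arrays at -3.64 to -3.57. Its gap to the nearest of them, divided by the group's range, was 0.841, over Dixon's critical value of 0.829 for 4 samples. Of 64 groups of 4 values checked in this way 1 was so marked, where chance marks about 1 in 20.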

How the results depend on the processing

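Of the alternatives with any call, all 20 settings including the one reported had a larger share of higher calls among Ensembl-only probes (53.4% to 77.8%) than among RefSeq mRNA probes of like signal (29.2% to 50.2%). The number of calls moved far more. With Y status as a block 157 Ensembl-only probes passed (107 higher, 50 lower) and 11.6% of RefSeq mRNA probes of like signal. With array weights 329 passed (210 higher, 119 lower) and 23.9%, and without the filter on background 19 passed (13 higher, 6 lower) and 0.415%. Lower calls numbered 35 with trend and robust settings, 32 with normexp and quantile normalization and 41 with normexp alone, with 8.13%, 8.01% and 6.43% of RefSeq mRNA probes of like signal. The Y-positive arrays gave 34 higher calls and 3.22%, quantile normalization 7.08%, slide row as a block 4.75%, and the filter on all 8 arrays 8.15%. The median log2 fold change turned to -0.0700 without the filter and -0.0185 with normexp background correction, and the cause was not tested. Probes above background on every array of 1 group and none of the other numbered 23 on the Y-positive arrays, where fewer arrays set the condition.

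With 1 array left out, 16 to 253 probes passed, 11 to 168 higher and 5 to 85 lower, and 0.920% to 17.2% of RefSeq mRNA probes of like signal. The median log2 fold change was 0.04 to 0.07, the detection difference 0.394 to 2.86 percentage points, and the probes above background in 1 group alone 5 to 14. With replicate number as a block limma called 0 Ensembl-only probes (0 higher, 0 lower) and 0 RefSeq mRNA probes, with 313 Ensembl-only probes at an unadjusted p under 0.05. Whether the numbers pair the samples was not settled. Deviations of same-numbered samples from their group means correlated at -0.487 to 0.267. These correlations were positive between arrays of like Y status and negative between arrays of unlike status. Same-numbered samples 2, 3 and 4 differed in Y status, so the correlations cannot show whether the numbers pair samples. Probes near background, with 43.3% to 50.2% of the class detected, have the least certain fold changes.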

Other observations

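The called Ensembl-only probes were spread over the probe series of the array, named by the start of the probe identifier. The series A_55 held 1099 of the 1478 tested, with 43 higher and 17 lower calls. A_52 had 10 higher and 1 lower of 150, A_51 had 9 and 1 of 105, A_66 had 5 and 1 of 108, and A_65 had 1 and 1 of 16. Ordered by identifier number and cut into 4 groups of like size, the first had 12 higher and 8 lower calls of 370 and the next 11 and 8 of 369. The third had 25 and 4 of 369, and the last 20 and 1 of 370. The shares called were 5.46%, 7.33%, 9.52%, 5.56% and 12.5% in the series as listed, and 5.41%, 5.15%, 7.86% and 5.68% in the groups by number. Of all kept probes 6.00% passed, 3.45% higher and 2.56% lower. These splits were made after the calls were seen and carry no test, and no pattern is read from them.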
